A study of Saccharomyces cerevisiae with 22 samples.

Results

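The step from 30 to 60 min of rapamycin in the yeast strain Hsf1-aa was read from 4 of the 22 arrays of the series, 2 arrays at each time, chosen by the strain and time in their labels. It separated 22 features that fell and 5 that rose out of 6353 tested. Most of the falls were genes for chaperones: HSP82, SIS1 and HSP104 lost the most newly made RNA, each more than 2.6-fold. On a list of Hsf1 chaperone targets, 15 of the 18 measured members passed the test. The list was drawn up with these data known, so this count is a description. The rises lay in the uptake of zinc and iron (ZRT1, FRE4), in biotin synthesis and transport (BIO4, BIO5) and in methionine synthesis (STR3).

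Both strains carry the anchor-away background as the labels give it: tor1-1, fpr1del, RPL13A fused to FKBP12 with the NAT marker, MET15, his3-1, leu2, lys2 and ura3, in mating type alpha. Hsf1-aa has in addition Hsf1 fused to FRB-yEGFP, while WT-aa has no such tag. Cells in synthetic complete medium with 2% glucose received 0.15 µM rapamycin (the slow depletion) for 0, 15, 30, 60 or 90 min. They also received 5 mM 4-thiouracil, which enters RNA as it is made, shortly before harvest. The labelled polyA RNA was set on a two-colour array against a pool of labelled RNA from WT-aa cells without rapamycin. Every value is thus a log2 ratio of sample over that pool, and a negative value means less newly made RNA than in the pool. Each strain and time had 2 arrays, the letters a and b, with the sample in Cy3 on letter a and in Cy5 on letter b. The series states 2 independent cultures per group, but the titles of both letters carry the same running number, so the p-values may cover technical spread alone. An untagged strain cannot show what the FRB-yEGFP tag itself does to Hsf1, and no array measured where Hsf1 was in the cell.

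Hsf1, the heat-shock factor, is an essential activator in budding yeast. It binds heat-shock elements in promoters and, also in unstressed cells, drives a compact set of genes for Hsp90, Hsp70, their co-chaperones and aggregate-handling proteins. In anchor-away, rapamycin ties the FRB tag to FKBP12 on a ribosomal protein, and the ribosomal protein carries its cargo out of the nucleus on its way to the cytoplasm. The tor1-1 allele and the loss of FPR1 make cells insensitive to the drug's usual action on TOR. Labelling RNA shortly before harvest reads synthesis rather than the stock of older mRNA.

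The 4 arrays had a median signal of 20.8 to 31.0 times the local background, and no spot of a falling feature was near saturation on them. Across features, the letters agreed weakly at 30 min in Hsf1-aa (r = 0.06) and better at 60 min (r = 0.47). Over the 10 groups r ran from -0.21 to 0.74. The step from 30 to 60 min in Hsf1-aa correlated between the letters at r = 0.04. Genes are not independent replicates. The array weights limma estimated were lowest at 30 min, 0.449 in Hsf1-aa and 0.442 in WT-aa, against 0.818 to 1.62 in the other groups. The alpha-cell genes MF(ALPHA)1, MF(ALPHA)2, STE3 and SAG1 were bright on the 4 arrays, at 115 to 1027 times background. Those of a cells (MFA1, MFA2, STE2, STE6, BAR1, AGA2) stood at 1.80 to 6.27 times background. The HSF1 probe read lower in Hsf1-aa than in WT-aa at every time, before rapamycin included: -2.31 and -1.89 at 0 min in Hsf1-aa against 0.06 and 0.08 in WT-aa. In Hsf1-aa it stood at -1.40 and -2.41 at 30 min and at -1.63 and -1.46 at 60 min, and its step did not pass the test. It cannot report on depletion, which acts on the protein.

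In Hsf1-aa, 22 of 6353 features (0.346%) were lower at 60 than at 30 min at an adjusted p under 0.05, and 5 (0.0787%) were higher. The test was limma's, with Benjamini-Hochberg adjustment over all features. At an unadjusted p under 0.05 the counts were 217 and 123. The falls ran from 1.23-fold (EDC2) to 2.66-fold (HSP82). In each of the 22 both arrays at 60 min lay below both at 30 min, which held for 9.38% of all features. The step was also below 0 in each letter for all 22, against 24% of all features. The 5 rises did not overlap between the times either, as for 9.3% of all features in that direction. Falls and rises were called on these same arrays, so their separation describes the calls and is no further support. The 27 together are 0.425% of the features. The total of 27 became 21 without the 30 min array of letter a (15 lower and 6 higher), of which 14 were among the 27; 1427 features then had an unadjusted p under 0.05, against 340. It was 16 without the 30 min array of letter b and 16 without the 60 min array of letter b, each with 15 lower and 1 higher. Without the 60 min array of letter a it was also 16, with 13 lower and 3 higher.

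**Figure D1:**
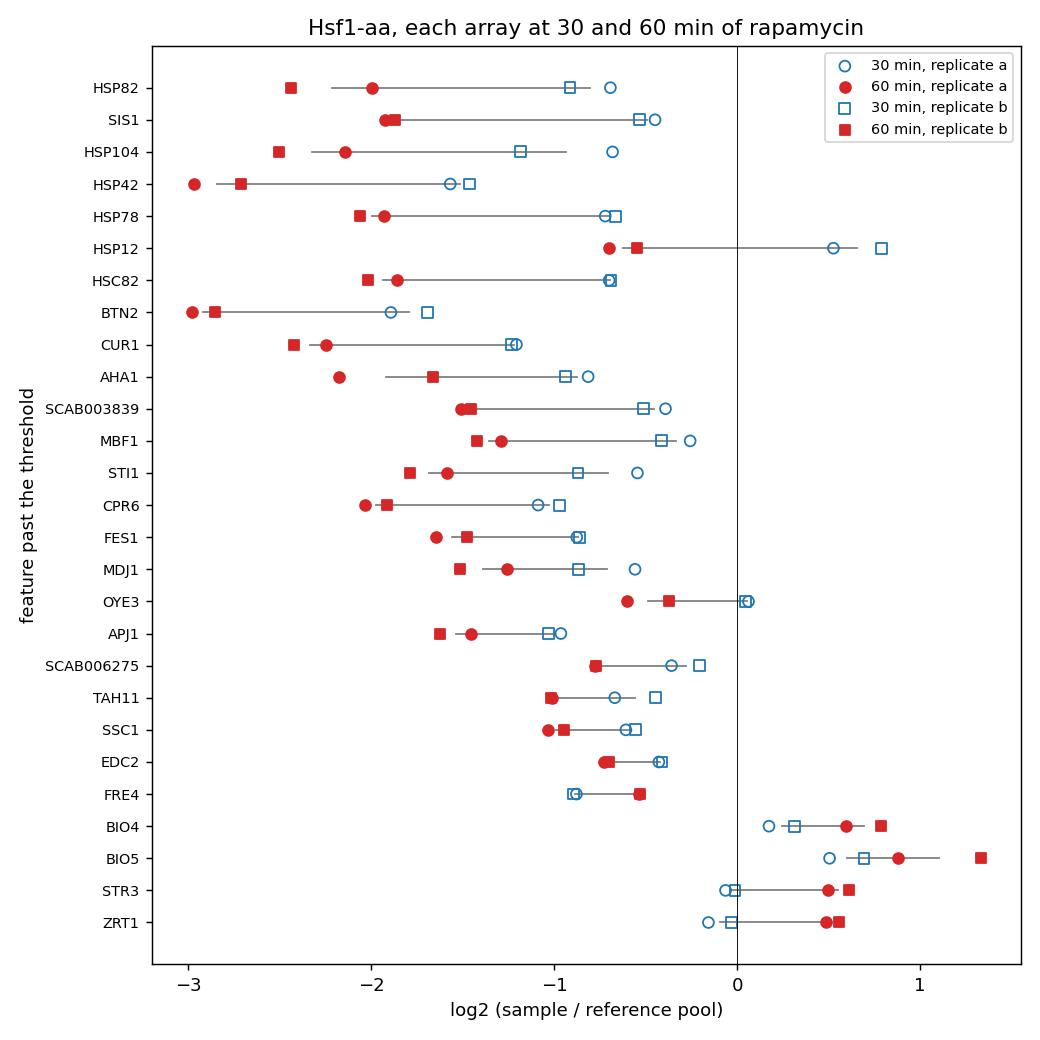
Log2 of sample over reference pool for each feature past the threshold in Hsf1-aa. Open symbols are the arrays at 30 min, filled symbols those at 60 min, circles letter a and squares letter b; the grey line joins the means of the times. In all 27 features the arrays of the 2 times are apart, and HSP82, SIS1 and HSP104 show the widest falls.

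Hsp90, the ATP-driven chaperone of kinases and other client proteins, is made from a pair of near-identical genes, and both fell. HSP82 (YPL240C), the heat-inducible copy, stood at -0.69 and -0.91 at 30 min and at -1.996 and -2.44 at 60 min (letters a and b, as in all pairs of values here). The step was a fall of 2.66-fold (log2 -1.41 ± 0.15, SE of the fit, 2 arrays at each time, limma adjusted p = 0.000268). HSC82 (YMR186W), the constitutive copy, went from -0.70 and -0.69 to -1.86 and -2.02, a fall of 2.37-fold (log2 -1.24 ± 0.09, adjusted p = 2.3e-05). Both arrays of each time lay close together for HSC82, while those of HSP82 spread more at 60 min. Whether the probes tell the copies apart was not tested.

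Further genes of the Hsp90 cycle fell by similar amounts. STI1 (YOR027W), which bridges Hsp70 and Hsp90, stood at -0.55 and -0.87 at 30 min and at -1.59 and -1.79 at 60 min (log2 step -0.98 ± 0.15, adjusted p = 0.00752). CPR6 (YLR216C), a cyclophilin bound to Hsp90, went from -1.09 and -0.97 to -2.03 and -1.91 (log2 step -0.94 ± 0.11, adjusted p = 0.00115). The letters agreed closely for CPR6. AHA1 (YDR214W), which speeds the Hsp90 ATPase, went from -0.81 and -0.94 to -2.18 and -1.66 (log2 step -1.04 ± 0.17, adjusted p = 0.0165), and had the widest gap between letters of all 22 falls, 0.64. Its relative HCH1 (YNL281W) went from -0.76 and -0.56 to -1.21 and -0.92; its step of -0.41 ± 0.08 narrowly missed the threshold (adjusted p = 0.0622). Of the 14 listed genes of the Hsp90 system, 5 fell and none rose, and their median step was -0.07. CPR7 (0.09), CNS1 (0.17) and SBA1 (0.01), further co-chaperones, had steps above 0. The median of all features was -0.003.

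The fall with the smallest adjusted p was that of SIS1 (YNL007C), the essential J-domain partner of Hsp70. It stood at -0.45 and -0.54 at 30 min and at -1.92 and -1.87 at 60 min, 2.65-fold lower (log2 step -1.40 ± 0.09, adjusted p = 4.8e-06). FES1 (YBR101C), a nucleotide exchange factor of cytosolic Hsp70, went from -0.88 and -0.86 to -1.65 and -1.47 (log2 step -0.69 ± 0.07, adjusted p = 0.000157). APJ1 (YNL077W), another J-domain protein, went from -0.96 and -1.03 to -1.45 and -1.62 (log2 step -0.54 ± 0.09, adjusted p = 0.011). These were the called members among the 16 measured genes of the cytosolic Hsp70 system, whose median step was -0.16, with 12 below 0.

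Both arrays at 60 min were also lower for the Hsp70 gene SSA1 (YAL005C), at -0.51 and -0.52 at 30 min and -1.45 and -1.53 at 60 min. Its step of -0.98 ± 0.23 did not pass (adjusted p = 0.106), with the letters close together at these times; the fit takes each gene's spread from all 20 arrays. YDJ1 (YNL064C), the main cytosolic J-domain protein, read -0.50 and -1.01 at 30 min and -1.19 and -1.60 at 60 min, a step of -0.64 ± 0.23 (adjusted p = 0.704). SSE1, an Hsp110 that serves as exchange factor, had a step of -0.46 ± 0.10 (adjusted p = 0.073), and SSA4, the inducible Hsp70, one of -0.32 ± 0.08 (adjusted p = 0.181). SSA2 was not measured here.

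Among the listed genes for sorting factors, small heat-shock proteins and disaggregases, which handle aggregates, 6 of 8 fell, with a median step of -1.20. HSP104 (YLL026W), the cytosolic disaggregase, went from -0.68 and -1.19 to -2.14 and -2.51 (log2 step -1.39 ± 0.18, adjusted p = 0.00164). HSP42 (YDR171W), a small heat-shock protein that gathers misfolded proteins, went from -1.57 and -1.46 to -2.97 and -2.71 (log2 step -1.33 ± 0.12, adjusted p = 9.5e-05). HSP104 kept a similar step in both letters while its level differed between them at either time. BTN2 (YGR142W), a sorting factor for misfolded proteins, went from -1.89 and -1.69 to -2.98 and -2.85 (log2 step -1.13 ± 0.09, adjusted p = 5.9e-05). Its paralog CUR1 (YPR158W) went from -1.21 and -1.23 to -2.25 and -2.42 (log2 step -1.12 ± 0.12, adjusted p = 0.000445). HSP26, a further small heat-shock protein, had a step of -0.37 ± 0.09 that did not pass (adjusted p = 0.128), and that of HSP31 was -0.04. The other 2 calls of this list are HSP78, described with the mitochondrial chaperones, and HSP12, described with the general stress genes.

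The mitochondrial chaperones gave 3 falls among 18. HSP78 (YDR258C), the disaggregase of the matrix, went from -0.72 and -0.67 to -1.93 and -2.06 (log2 step -1.30 ± 0.12, adjusted p = 0.000128). MDJ1 (YFL016C), a J-domain protein of the matrix, went from -0.56 and -0.87 to -1.26 and -1.52 (log2 step -0.67 ± 0.10, adjusted p = 0.00752). SSC1 (YJR045C), the matrix Hsp70, fell less, from -0.61 and -0.56 to -1.03 and -0.95 (log2 step -0.41 ± 0.06, adjusted p = 0.0098). The chaperonin pair HSP60 (-0.43 ± 0.12, adjusted p = 0.341) and HSP10 (-0.28 ± 0.10, adjusted p = 0.684) did not pass. The next gene to SSC1 in the R64 annotation, TAH11 (YJR046W), a replication licensing factor, also fell, from -0.67 and -0.44 to -1.01 and -1.02 (log2 step -0.46 ± 0.08, adjusted p = 0.0286). These were the only 2 neighbouring genes among the 20 falling genes with a symbol, and whether the TAH11 probe reads RNA from SSC1 was not tested.

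MBF1 (YOR298C-A), a transcriptional coactivator that binds Gcn4, completed the 15 called targets. It stood at -0.26 and -0.41 at 30 min and at -1.29 and -1.42 at 60 min (log2 step -1.02 ± 0.12, adjusted p = 0.00115). All 18 measured targets had a step below 0, from -0.41 (HCH1) to -1.41 (HSP82), with a median of -1.03. Both 60 min arrays of each of the 18 lay under both 30 min arrays, which held for 9.38% of all features. Of the 18, 15 were called on these same arrays. The list was drawn up with these data known, so its counts are a description.

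Outside the targets, OYE3, EDC2 and unnamed probes fell by less or with less margin. OYE3 (YPL171C), an NADPH oxidoreductase of the Yap1 oxidative stress list, went from 0.06 and 0.05 to -0.60 and -0.37 (log2 step -0.54 ± 0.11, adjusted p = 0.0493). EDC2 (YER035W), which activates mRNA decapping, had the smallest fall, from -0.43 and -0.41 to -0.73 and -0.70 (log2 step -0.29 ± 0.06, adjusted p = 0.0493). Each was near the threshold. The probe SCAB003839 went from -0.39 and -0.51 to -1.51 and -1.45 (adjusted p = 0.0493), and SCAB006275 from -0.36 and -0.21 to -0.77 and -0.77 (adjusted p = 0.0188). ALG14 (YBR070C), an enzyme of N-glycan synthesis, lay just outside with a step of -0.74 ± 0.14 (adjusted p = 0.0503).

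HSP12 (YFL014W), a small membrane-associated stress protein under Msn2 and Msn4, was a called fall that lay well above the pool at 30 min. In Hsf1-aa it read 0.06 and -0.10 at 0 min and 1.12 and 1.03 at 15 min, stood at 0.53 and 0.79 at 30 min, and was at -0.70 and -0.55 at 60 min. The step from 30 to 60 min was -1.28 ± 0.12 (2.43-fold, adjusted p = 0.000157). By 90 min it was at 0.02 and -0.16. WT-aa also went down, from 0.80 and 0.59 at 30 min to -0.15 and -0.18 at 60 min (log2 step -0.86, adjusted p = 0.0278), and the difference between the strains did not pass (-0.42 ± 0.18, adjusted p = 0.9999).

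Msn2 and Msn4 drive the general stress response of yeast, and TOR and glucose signalling hold them back. Of the 32 listed genes, 31 had a step below 0 in Hsf1-aa (median -0.27) and 31 in WT-aa (median -0.20). HSP12 was the one call in each strain, and 15 of the 32, HSP12 included, had an unadjusted p under 0.05 in Hsf1-aa. Over all 6353 features, 340 had such a p in limma, 217 of them lower. Examples that missed the threshold in Hsf1-aa were the hexokinase HXK1, at 0.33 and 0.48 at 30 min and -0.34 and -0.09 at 60 min (adjusted p = 0.0729), TFS1 (-0.37, adjusted p = 0.0841) and ALD4 (-0.39, adjusted p = 0.076).

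Among the rises, ZRT1 (YGL255W), the high-affinity zinc transporter, had the smallest p. It went from -0.16 and -0.03 to 0.49 and 0.55 in Hsf1-aa (log2 step 0.61 ± 0.07, 1.53-fold, adjusted p = 0.000498). It also rose in WT-aa, from -0.13 and 0.12 to 0.52 and 0.80 (log2 step 0.67, adjusted p = 0.00209). The difference of the strains' steps was -0.05 ± 0.10. STR3 (YGL184C), a cystathionine beta-lyase, went from -0.06 and -0.01 to 0.49 and 0.61 (log2 step 0.59 ± 0.11, adjusted p = 0.0493), with a step of 0.48 in WT-aa that did not pass (adjusted p = 0.448).

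BIO3, BIO4 and BIO5 lie next to one another in the R64 annotation and belong to biotin synthesis and the uptake of its precursors. BIO5 (YNR056C), a transporter, went from 0.50 and 0.69 to 0.88 and 1.33 (log2 step 0.51 ± 0.10, adjusted p = 0.0493). BIO4 (YNR057C), dethiobiotin synthetase, went from 0.17 and 0.31 to 0.59 and 0.79 (log2 step 0.45 ± 0.08, adjusted p = 0.0258). BIO3 (YNR058W) had a step of 0.31 ± 0.07 that did not pass (adjusted p = 0.0866). All 6 biotin genes had steps above 0 in both strains, with medians of 0.25 in Hsf1-aa and 0.21 in WT-aa.

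The iron regulon, which Aft1 and Aft2 raise when iron is short, gave 1 rise among 27 measured genes in Hsf1-aa. FRE4 (YNR060W), a ferric reductase, had been at -0.88 and -0.89 at 30 min and came back to -0.54 and -0.53 at 60 min (log2 step 0.35 ± 0.06, adjusted p = 0.0165). It was lower again at 90 min, at -1.03 and -1.09. In WT-aa its step was 0.00, and the difference between strains did not pass (0.35 ± 0.08, adjusted p = 0.505). TIS11 (YLR136C), whose protein promotes decay of mRNAs of iron-using enzymes, went from -0.30 and -0.31 to 0.10 and 0.26 in Hsf1-aa (log2 step 0.48 ± 0.11, adjusted p = 0.0987). In WT-aa it went from -0.63 and -0.49 to -0.71 and -0.91. The strain difference of 0.73 ± 0.15 did not pass over all features (adjusted p = 0.275).

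Over the whole iron list, 19 of 27 steps were above 0 in Hsf1-aa (median 0.06) and 20 of 27 below 0 in WT-aa (median -0.07, whose sign turns with letter a alone). The remaining genes named for small p among rises, none past the threshold, were FRE1 (0.31, adjusted p = 0.133), MET17 (0.29, adjusted p = 0.128) and TDA6 (0.23, adjusted p = 0.21). MET17, also known as MET15, makes homocysteine; it rose in WT-aa (log2 step 0.56, adjusted p = 0.0067).

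**Figure D2:**
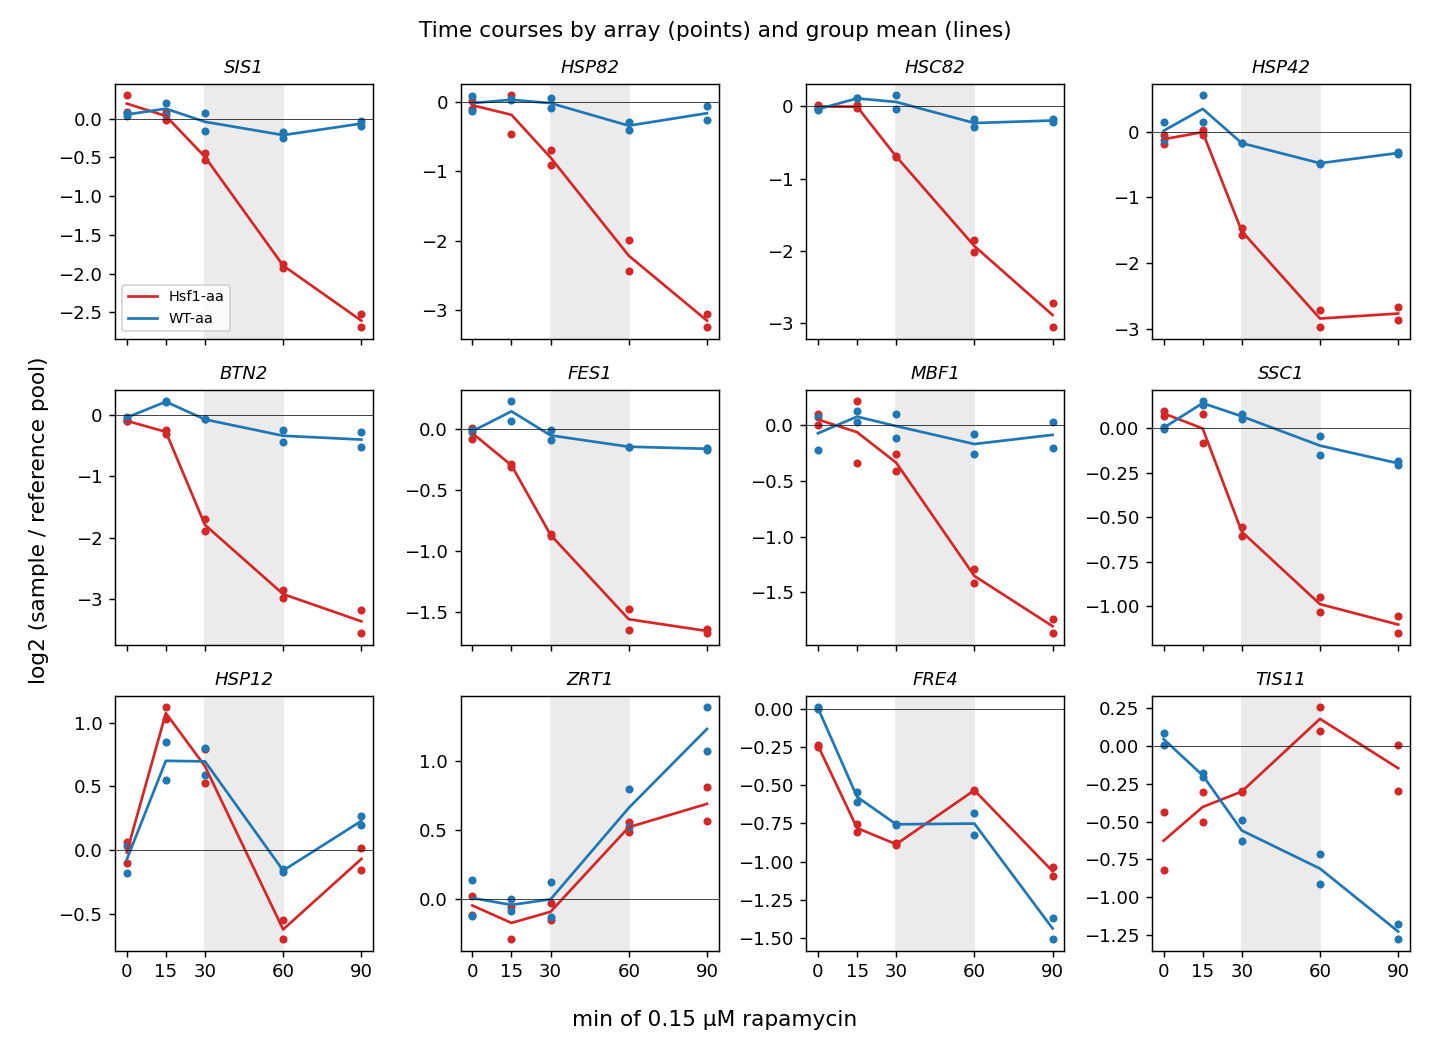
Log2 of sample over reference pool against min of 0.15 µM rapamycin for 12 genes; each panel has its own scale. Points are single arrays, lines join group means, Hsf1-aa is red, WT-aa is blue, and the grey band marks 30 to 60 min. Chaperone genes fall through the band in Hsf1-aa, HSP12 falls in both strains, and ZRT1 rises in both.

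To ask whether the step differed from that of the untagged strain, the step in WT-aa was taken from the step in Hsf1-aa in the same fit. In WT-aa, 3 features (0.0472%) passed between 30 and 60 min: ZRT1, MET17 and HSP12. That count was 0 without the 30 min array of letter a of WT-aa (302 at an unadjusted p under 0.05 in limma) and 0 without its 60 min array of letter b (158). It was 1 without the 60 min array of letter a and 6 without the 30 min array of letter b. The step itself differed between strains for 4 features (0.063%), all lower in Hsf1-aa and all targets; 78 reached an unadjusted p under 0.05. SIS1 differed by -1.23 ± 0.12 (adjusted p = 0.00129), since it read -0.15 and 0.08 at 30 min and -0.25 and -0.17 at 60 min in WT-aa. HSC82 differed by -0.95 ± 0.13 (adjusted p = 0.0224), BTN2 by -0.86 ± 0.13 and FES1 by -0.60 ± 0.09 (adjusted p = 0.0466 for each). In WT-aa the steps of these 4 were -0.17, -0.29, -0.27 and -0.09, none past the threshold.

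The next in order did not pass: HSP42 (-1.02 ± 0.17, adjusted p = 0.0506), CUR1 (-1.02 ± 0.17, adjusted p = 0.0598) and HSP78 (-0.98 ± 0.17, adjusted p = 0.072). HSP82 and HSP104 had steps as different (-1.09 ± 0.21 and -0.99 ± 0.25) but wider errors. All 22 falling features had a step below 0 in WT-aa too, from -0.03 (APJ1) to -0.86 (HSP12), with a median of -0.17 against -1.03 in Hsf1-aa. The step was more negative in Hsf1-aa for each of the 22. The count of 4 was 1 without the 30 or the 60 min array of letter b in Hsf1-aa, 1 without the 30 min array of letter a or either 60 min array in WT-aa, and 2 without the 30 min array of letter b there. Leaving out one array at 0 min of Hsf1-aa, or at 90 min of WT-aa, also left 1, and leaving out one at 15 min of Hsf1-aa gave 7. Without the 30 min array of letter a of Hsf1-aa there were 3 calls, 1 lower and 2 higher, and without its 60 min array of letter a 3 calls, 2 lower and 1 higher. SIS1 passed in all of these.

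**Figure D3:**
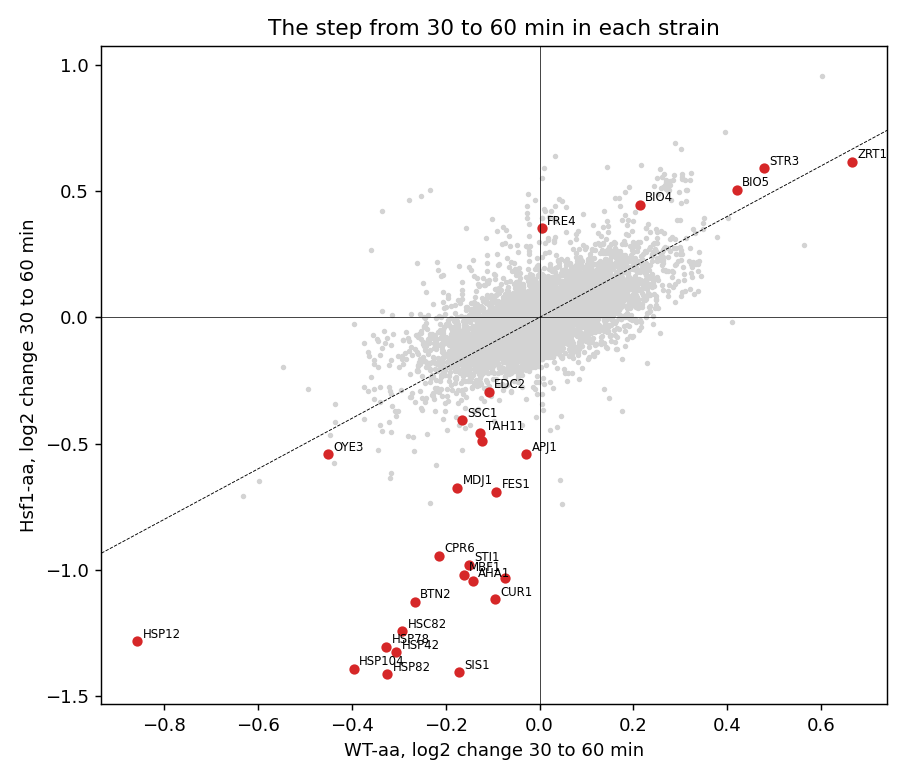
Log2 step from 30 to 60 min in Hsf1-aa (vertical) against WT-aa (horizontal), 1 point per feature; red points passed in Hsf1-aa, and named ones carry their symbol. The dashed line marks equal steps. The chaperone genes lie far under it, while ZRT1, STR3 and BIO5 lie close to it.

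How much of each fall belonged to this interval was described over 3 intervals of 30 min. From 0 to 30 min, 44 features (0.693%) passed in Hsf1-aa and 34 of them (0.535%) were lower; from 60 to 90 min, 7 passed (0.11%) and 6 (0.0944%) were lower. The 30 min arrays enter the first step and this one with opposite signs, and the 60 min arrays this one and the next, so a high or low array moves neighbouring steps in opposite directions. Of the 22 falling features, 20 had a change of -0.5 or lower on the log2 scale from 0 to 90 min; HSP12 and EDC2 did not. These 20 were picked by their call from 30 to 60 min, which favours a large share in that interval. Genes called only in another interval are left out, so the shares are no comparison of intervals over all genes. The median share of that change was 40.6% from 0 to 30 min, 47.0% from 30 to 60 min and 16.0% from 60 to 90 min. The middle interval was the largest for 14 of the 20, the first for 6 and the last for 0.

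More than 50% of the fall came between 30 and 60 min for 8 features: HSP78 (56.0%), MBF1 (54.8%), AHA1 (54.1%), CPR6 (52.0%), SIS1 (50.1%), HSP42 (50.1%) and the probes SCAB006275 (52.7%) and SCAB003839 (50.6%). HSP42 had a larger share, 52.8%, from 0 to 30 min, and its share from 60 to 90 min was -2.9%. These shares have no error of their own, and several lie close to 50%. By letter a alone 7 features were over 50%, and by letter b alone also 7, but only MBF1 and SCAB006275 were so in both. AHA1 is the widest case, with 86.7% by letter a and 31.7% by letter b. Without the 0 min array of letter a the count fell from 8 to 2. It was 4 without the 30 min array of letter a and 5 without that of letter b or the 60 min array of letter a.

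By these shares, timing varied among the members, but no test set one gene against another. BTN2 and SSC1 had lost most in the first interval, with 51.9% and 56.1% of the fall by 30 min, and FES1 had lost 51.4%. HSP42 had lost 52.8% by 30 min, and read -2.97 and -2.71 at 60 min and -2.86 and -2.66 at 90 min. From 60 to 90 min CPR6 changed by -0.01 and AHA1 by -0.02 on the log2 scale, neither past the threshold. HSC82 and HSP82 went on falling, by 33.1% and 30.1% of their change, and HSC82, SIS1 and HSP82 passed the test again from 60 to 90 min (adjusted p = 0.000956, 0.00407 and 0.0391).

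Per gene, the tests of one interval against another passed for few features. The step from 30 to 60 min minus that from 0 to 30 min passed in limma for 4 features (0.063%), none of them a chaperone target. HSP12 (-1.96, adjusted p = 0.0022) and the citrate-pathway genes CIT2 (-0.84, adjusted p = 0.0475) and ACO1 (-0.68, adjusted p = 0.0169) were lower. FRE4 (1.00, adjusted p = 0.0019) was higher. CIT2, the peroxisomal citrate synthase, had risen from 0.51 and 0.47 at 0 min to 1.18 and 1.50 at 30 min and was at 1.23 and 1.47 at 60 min, a further step of 0.01. ACO1, aconitase, had risen from 0.02 and 0.14 to 0.42 and 0.59 and read 0.17 and 0.34 at 60 min. SIS1, with steps of -0.69 and then -1.40, did not pass (adjusted p = 0.291). The count of 4 was 2 without the 60 min array of letter a or the 0 min array of letter b of Hsf1-aa, and 1 without its 30 min array of letter b.

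Against the interval after it, the step passed for 4 features (0.063%). HSP42 fell more from 30 to 60 than from 60 to 90 min (difference -1.40, adjusted p = 0.0272), as did HSP12 (-1.84) and HXK1 (-1.40, adjusted p = 0.0489), while FRE4 was higher (0.88). The difference was below 0 for all 18 measured targets, and HSP42 was the one that passed. The count of 4 rested on both 60 min arrays of Hsf1-aa. None of the 4 features kept its call without that of letter a or without that of letter b. It was 2 without either array at 0, 15 or 30 min of Hsf1-aa, or 60 or 90 min of WT-aa, and without the 90 min array of letter b of Hsf1-aa.

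**Figure D4:**
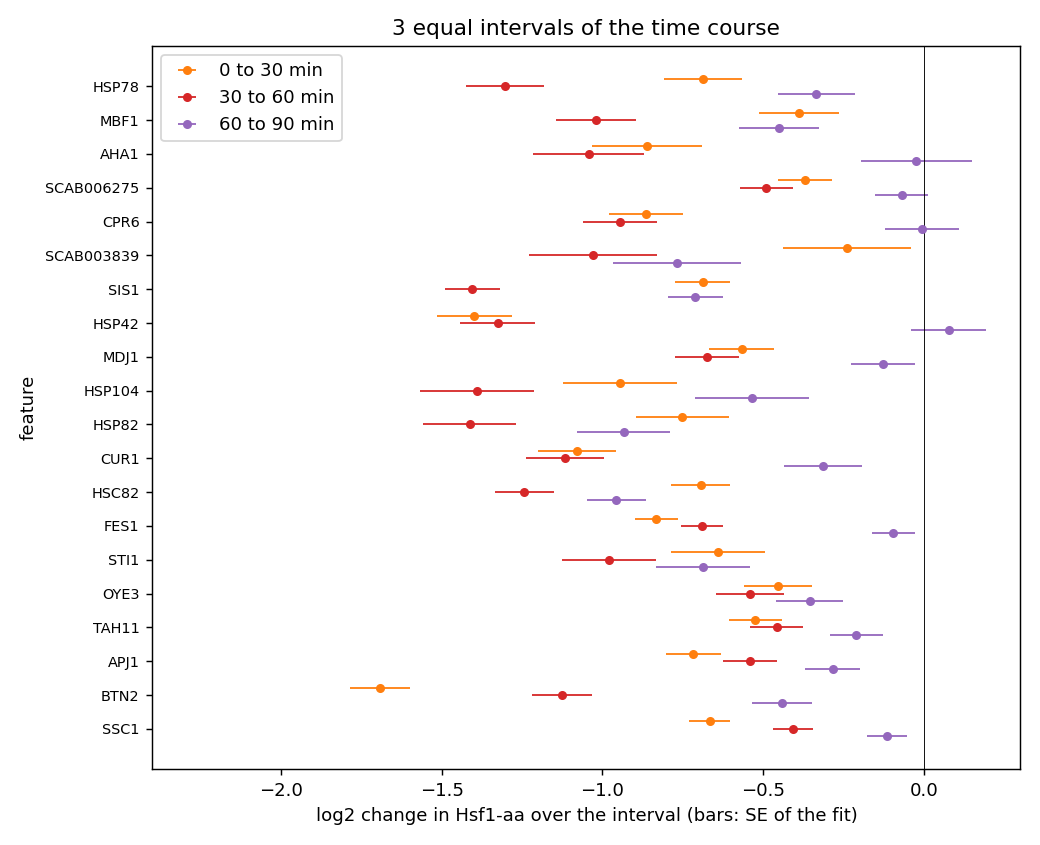
Log2 change in Hsf1-aa over 0 to 30, 30 to 60 and 60 to 90 min for the 20 falling features whose 0 to 90 min change was -0.5 or lower, sorted by the share in the middle interval. Points are fitted changes and bars are SE of the fit. HSP78 at the top has 56.0% of its fall in the middle interval, and SSC1 at the bottom 34.3%.

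Genes of protein turnover, which work beside the chaperones, gave no calls. Of 33 genes of the proteasome and its activator RPN4, 31 had a step below 0 in Hsf1-aa (median -0.13) and 25 in WT-aa (median -0.09). In limma 0 passed, and 8 had an unadjusted p under 0.05 in Hsf1-aa and 5 in WT-aa, all lower. Among all 6353 features, 340 had such a p in Hsf1-aa, 217 of them lower, and 349 in WT-aa, 187 of them lower. RPN4 itself had a step of -0.34 ± 0.07 (adjusted p = 0.073). Of 19 ubiquitin and quality control genes 18 were below 0 (median -0.10), with 0 past the threshold and 4 at an unadjusted p under 0.05. The cytosolic chaperonin and prefoldin (median -0.01, below 0 in 9 of 15), ER folding genes (median 0.00, 9 of 20) and ribosome-associated chaperones (median 0.03, 3 of 7) showed 0 calls, and 1, 1 and 0 of them had an unadjusted p under 0.05. The small sign of these 3 medians flips with the authors' deposited values or with one letter alone.

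The ribosome was the largest list. Of 120 measured genes for cytosolic ribosomal proteins, 91 had a step below 0 in Hsf1-aa (median -0.06), whereas 85 had a step above 0 in WT-aa (median 0.04). None passed in either strain in limma. In Hsf1-aa 4 had an unadjusted p under 0.05, 3 of them lower, against 340 of all 6353 features, 217 of them lower. Of 31 ribosome biogenesis genes 27 had a step above 0 in each strain, with medians of 0.12 in Hsf1-aa and 0.15 in WT-aa. None passed in limma in either strain, and 0 had an unadjusted p under 0.05 in Hsf1-aa. Sulfur assimilation and methionine genes had medians of 0.14 and 0.15, with STR3 the one call in Hsf1-aa and MET17 in WT-aa.

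**Figure D5:**
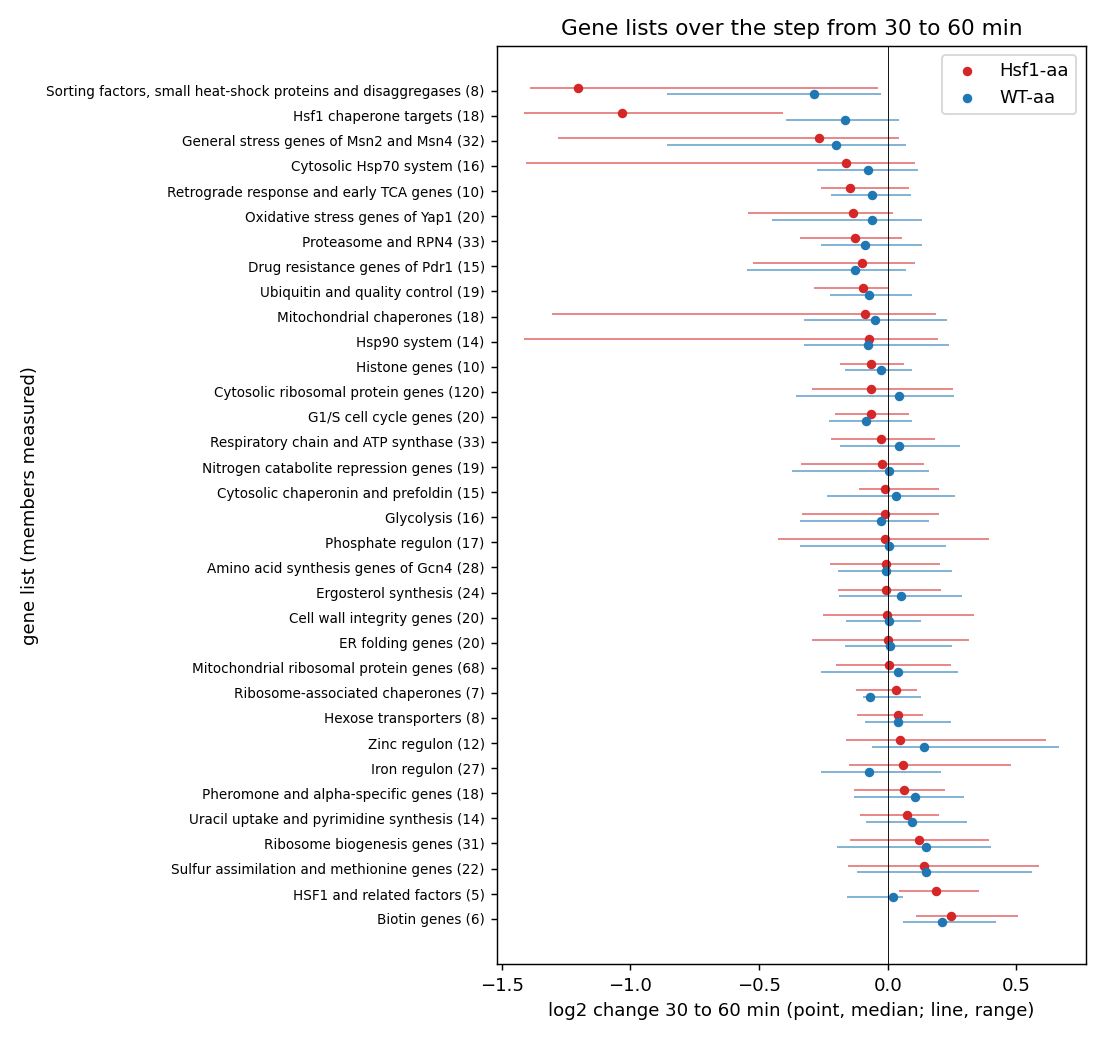
Median log2 step from 30 to 60 min (point) and the range of the members (line) for each gene list, with the number measured in parentheses; Hsf1-aa is red and WT-aa blue. The targets of Hsf1 and the aggregate-handling genes have medians of -1.03 and -1.20 in Hsf1-aa, where the medians of the other lists lie between -0.27 and 0.25.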

How the data were processed

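The scanner files deposited by the authors give a linear intensity per spot and dye, with local background in separate columns, per the file headers. A table of log2 Cy5 over Cy3 deposited by the authors served as an alternative; no source used here states how it was normalised. Intensity was corrected by normexp (offset 50) and normalised by loess within arrays, control spots having weight 0. Ratios were turned to sample over pool and spots of a gene averaged. Features more than 2 SDs above background in the sample channel on at least 2 arrays were kept: 6353, of which 5293 had a symbol and 1060 did not, with 58 symbols updated. limma 3.58.1 (R 4.3.3) fitted all 20 slow arrays with 10 groups and dye, which is the same factor as the replicate letter; p-values were Benjamini-Hochberg adjusted, threshold 0.05, two-sided. The fit was tested on simulated data. The letters' difference a minus b correlated between groups at -0.40 to 0.82 (median 0.54, 45 pairs). As letter and dye are the same factor, this cannot tell a dye effect from a pairing of cultures. The letter was entered in the fit as dye. Genes named were the called falls and rises with a symbol, the smallest p where under 10 passed, the members of the chaperone target list, genes of other lists past any test, the smallest p of the other tests, and strain genes; others were named after their values were seen (SSE1, SSA4, HSP26, HSP31, HSP60, HSP10, CPR7, CNS1, SBA1, ALD4, RPN4, and those of the closing observations). The genes and lists were chosen with earlier results of these data known. Arrays give no counts, and their number limits the precision. The standard arrays enter no test.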

Additional observations from a re-analysis of the deposited data

Results flagged for a closer look

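The step from 30 to 60 min differed between Hsf1-aa and WT-aa by the test of the difference itself for 4 genes. The log2 difference (Hsf1-aa minus WT-aa) was -1.23 for SIS1, -0.95 for HSC82, -0.86 for BTN2 and -0.60 for FES1, with 2 arrays per strain and time. SIS1 kept this call in all 30 alternatives, HSC82 in 18, BTN2 in 12 and FES1 in 8.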

How the results depend on the processing

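The called genes kept their direction under every alternative run, whereas small list medians whose sign turns are named beside their values; no alternative was added after seeing the data. HSP82, HSC82, SIS1, HSP104, HSP42, HSP78 and HSP12 kept their call in all 32 alternatives, while EDC2 kept it in 4, BIO5 in 7, OYE3 in 11 and STR3 in 14. Against the interval before, with 31 alternatives, FRE4 kept its call in 30, HSP12 in 29, ACO1 in 19 and CIT2 in 4. Against the interval after, also with 31, FRE4 and HSP12 each kept it in 28, HSP42 in 15 and HXK1 in 10. The 27 calls of the Hsf1-aa step became 44 with the authors' deposited values, 14 with no replicate block, 15 with the arrays of 1 strain, 7 with the 4 arrays alone, 14 with array weights, and 16 to 29 leaving out one array. The 3 calls of WT-aa became 8 with the authors' values, 0 with no replicate block (149 at an unadjusted p under 0.05 in limma), 0 with the arrays of 1 strain (358), 1 with array weights and 0 to 6 leaving out one array. The 4 calls of the strain difference became 7 with median centring, 9 with the authors' values, 2 with no replicate block, 1 with array weights, 1 with a trended robust prior and 1 to 7 leaving out one array. The 4 calls against the interval before became 2 with plain background subtraction, median centring, external control centring, no replicate block, array weights or the trended robust prior, 0 with the arrays of 1 strain (77 at an unadjusted p under 0.05 in limma) and 1 to 3 leaving out one array. The 4 calls against the interval after became 1 with the arrays of 1 strain, 2 with array weights or the trended robust prior, and 0 to 5 leaving out one array. The 8 of 20 features with over 50% of their fall in the interval became 4 of 17 with median centring. They became 5 of 13 with no replicate block and 5 of 12 with array weights. With the authors' values they became 12 of 28, with plain background subtraction 9 of 20 and with no filter on dim probes 9 of 21. Leaving out one array gave 2 to 8. Median centring split the Hsf1-aa calls 18 lower and 2 higher, and no replicate block 14 lower and 0 higher, against 22 and 5. Fewer arrays leave fewer degrees of freedom; the cause of the other shifts was not tested. Slide or scan day as a block was not run, because the files used here carry neither.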

Other observations

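Other gene groups over the same step gave no calls in Hsf1-aa by limma. Of 10 genes of the retrograde response and early TCA cycle 8 had a step below 0 (median -0.14, against -0.06 in WT-aa), and 4 had an unadjusted p under 0.05. Of 15 drug resistance genes under Pdr1, 12 were below 0 in each strain (medians -0.10 and -0.13), 1 with an unadjusted p under 0.05 in Hsf1-aa. Over all 6353 features, 340 had such a p in limma in Hsf1-aa, 217 of them lower. The drug pump gene PDR5 stepped by -0.20 in Hsf1-aa and by -0.55 in WT-aa, neither past the threshold. Of 33 respiratory chain and ATP synthase genes 20 were below 0 in Hsf1-aa (median -0.03) and 21 above 0 in WT-aa (median 0.04, whose sign turns with letter b alone), and of 68 mitochondrial ribosomal protein genes 35 were above 0 in Hsf1-aa (median 0.00, whose sign turns with the authors' deposited values and with letter a alone).

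The standard depletion (7.5 µM rapamycin, 30 min, 1 array per strain) gives the strain difference at another dose, with no replicates. For HSP82 the log2 difference Hsf1-aa minus WT-aa was -3.69 there, against -0.78 at 30 min and -1.87 at 60 min of the slow course. For SIS1 it was -3.09, against -0.45 and -1.69, and for MBF1 -2.91, against -0.33 and -1.19. For HSP42 it was -1.40, against -1.34 and -2.36, and for APJ1 -0.44, against -0.81 and -1.32. Dose and reference differ, so the order of these genes is given as a description.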
